A study of Rattus norvegicus with 21 samples.

Results

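Of 21 single rat hippocampal neurons, the 16 GABAergic neurons are described here, split by their level of Sst, the gene for the neuropeptide somatostatin. A neuron was called Sst-high when its normalized Sst count was 900 or more and Sst-low otherwise. This gave 9 Sst-high and 7 Sst-low neurons. The classes were defined by the Sst value itself, so the Sst values are a description and support nothing. All 21 neurons came from Wistar rats that carry a transgene with the Venus reporter for the vesicular GABA transporter. They were taken at embryonic day 18 and cultured for 17 days. Their contents were drawn into the patch electrode after recording and sequenced cell by cell. The GABAergic neurons came from 3 kinds of culture. In the first, 6 neurons grew with glia. In the second, 5 neurons grew in cultures purified with the antimitotic agents FdU and U, which were added early and then withdrawn. In the third, 5 neurons grew in such purified cultures that also received oligodendrocyte conditioned medium (OCM) from day 3 in vitro, collected from oligodendrocytes of newborn Wistar cortex. The other 5 neurons of the series are pyramidal cells grown with glia and were not classed. The cultures with glia received no antimitotic agent, so that agent and the absence of glia cannot be told apart.

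Somatostatin is released by a class of inhibitory neurons whose axons mostly reach the distal dendrites of pyramidal cells. In the hippocampus these include the oriens-lacunosum moleculare cells, and long-range projecting cells that also contain neuropeptide Y. Most of them are born in the medial ganglionic eminence (MGE). Many other hippocampal GABAergic neurons, such as basket cells with cholecystokinin and the cannabinoid receptor CB1 and many neurogliaform cells with reelin, come from the caudal ganglionic eminence (CGE) or use other peptides. Transcription of Sst is a classical case of control by the cAMP response element (CRE), a short DNA site bound by the factor CREB.

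A match to the CRE near the annotated start of Sst is shown because Sst defined the classes. Beside it are the matching sites of the other measured genes among those searched. The search covered the named genes and the lists of neuropeptide precursors, peptide processing, Sst and MGE, CGE and activity-regulated genes. The other lists were not searched. The motif searched was TGACGTCA, which reads the same on both strands, in windows from 250 bases before to 50 bases after each annotated start (RefSeq, assembly GRCr8). Of the 91 searched genes with a window, 8 held it, and 4 of those 8 were measured in these neurons. Each site is given as 30 bases, with the motif in capitals.
Sst: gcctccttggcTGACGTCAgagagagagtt
Scg2: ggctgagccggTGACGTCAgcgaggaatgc
Vgf: tgaatgaacatTGACGTCAatggggcgggg
Dusp1: ggcagggcgggTGACGTCAccacccggtca
The sites lie at chr11:90461537-90461566 on the plus strand (Sst), chr9:88256971-88257000 on the minus strand (Scg2), chr12:25277092-25277121 on the minus strand (Vgf) and chr10:17184718-17184747 on the plus strand (Dusp1). In Sst the motif starts at base 3 of the annotated transcript, and in the other 3 genes it lies upstream of the start. Over all 33469 windows, 612 (1.83%) held the motif. Among measured genes it was in 216 of 5671 windows (3.81%). It was in 47 of 1085 windows (4.33%) of genes higher by at least 4-fold in Sst-high neurons and in 27 of 615 (4.39%) of genes lower by as much. The shares of higher and lower genes were thus nearly equal. A match is a description of these letters, not of a bound site.

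Since no label tells which neurons shared an animal or a dish, each class counts as 1 sample: there is no p-value and no standard error, and ranges describe the spread between cells. The classes were unevenly spread over the cultures. With glia there were 3 Sst-high neurons (cells 1, 2 and 5) and 3 Sst-low neurons (cells 3, 4 and 6). In purified cultures 1 neuron was Sst-high (cell 5) and 4 were Sst-low (cells 1 to 4). All 5 OCM-treated neurons were Sst-high, so over all cultures the class and the OCM treatment overlap. The depth also moved with the class. Sst-high neurons had 5730139 to 25160911 recovered reads (median 10939479) and Sst-low neurons 2442814 to 13700720 (median 5587208). After every neuron was thinned to 2442814 reads, 2648 to 8283 genes (median 4249) were above 0 in Sst-high and 2558 to 5929 (median 3869) in Sst-low neurons, against 2715 to 8652 and 2573 to 6179 before thinning. Sample titles open with letters of unstated meaning: 2 Sst-high and 2 Sst-low neurons were titled P, 5 and 5 were titled S, and 2 and 0 were titled ech. The part of culture, depth and title in the results below was not tested.

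**Figure D1:**
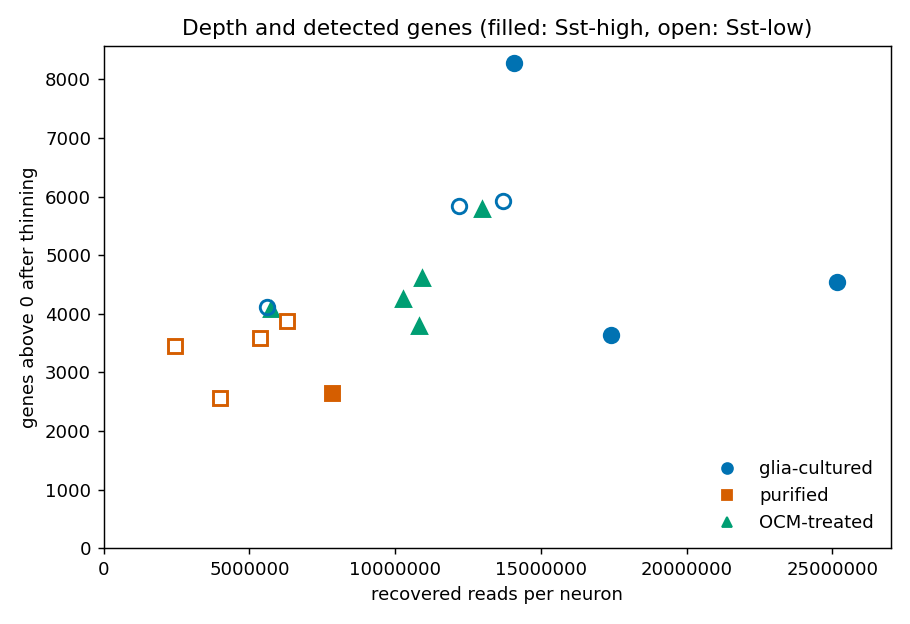
Recovered reads per neuron (x axis) against the number of genes above 0 after thinning to 2442814 reads (y axis), with filled symbols for Sst-high and open symbols for Sst-low neurons, shaped by culture. The 4 Sst-low purified neurons lie at 2442814 to 6282231 reads, and the highest gene number, 8283, belongs to a glia-cultured Sst-high neuron.

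Sst (chromosome 11, 80358172 to 80359449 in rn6) spanned a very wide range within the Sst-high class. In glia-cultured cells 1, 2 and 5 its normalized count was 49864, 1398 and 21737. In the purified cell 5 it was 243977. In OCM-treated cells 1 to 5 it was 325053, 966, 19012, 124726 and 234564. Sst-low neurons had 3.73, 647 and 0 in glia-cultured cells 3, 4 and 6 and 2.47, 130, 0 and 0 in purified cells 1 to 4. The neurons just inside the threshold had 966 and 1398, and those just outside had 647 and 130. Most of the class lay far from the threshold, with 7 Sst-high neurons at 19012 or more. Sst made up 0.0146% to 5.11% of all normalized counts in Sst-high neurons (median 0.654%), and at most 0.00863% in Sst-low neurons. It ranked 1 among all gene symbols in the purified cell 5 and in OCM-treated cells 1 and 4, and 2 and 3 in OCM-treated cell 5 and glia-cultured cell 1. By contrast it ranked 1547 in glia-cultured cell 2 and 1337 in OCM-treated cell 2.

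Both classes carried the genes that define a GABAergic neuron. Gad2, which makes GABA (chromosome 17, 89171573 to 89234770), was above 0 in all 16 neurons, at 898 to 16462 (median 9216) in Sst-high and 1197 to 25558 (median 9006) in Sst-low neurons. Slc32a1, the vesicular GABA transporter whose reporter the rats carry, was at 112 to 1837 in Sst-high and 390 to 1357 in Sst-low neurons. The ranges of both genes overlapped over most of their width. Gad1, the other GABA-making enzyme (chromosome 3, 56861431 to 56902137), was at 2422 to 19503 in Sst-high neurons and at 0 to 17837 in Sst-low neurons, where the purified cell 4 had 0. Slc17a7, the vesicular glutamate transporter of pyramidal cells, was at 0 in all 16 neurons.

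The comparison of the classes was made per gene as the difference of the mean log2(normalized count + 1), Sst-high minus Sst-low, for the 7305 genes that 3 or more of the 16 neurons expressed above 0. A difference of at least 2, or 4-fold on this scale, is counted below. It largely follows in how many neurons of a class a gene was found, and it understates the change of low genes. By this measure 1422 genes (19.5%) were higher and 786 (10.8%) were lower in Sst-high neurons, and the median of all genes was 0.33. When the difference was instead taken inside each culture that held both classes and averaged with weights by cell number, the split turned to 1101 higher and 1644 lower genes. Counts of a gene group over all cultures are to be read against the shares of 19.5% and 10.8%. A gene found in 1 class alone passed the filter through that class, so its direction was fixed by the filter. Creb1, Crem, Egr4, Calb1, Tac1, Cxcl14 and Kcnip4 are such genes, and the list counts and medians below include them. Within cultures with glia 25.2% of genes were higher and 26.6% lower, and counts with glia are to be read against these. Separation without overlap was rare. Only 2 genes (0.0274%) had every Sst-high neuron above every Sst-low neuron, and 0 genes (0%) had the reverse. One of them was Sst, by which the classes were made. The other was Mdh2, the mitochondrial malate dehydrogenase (chromosome 12, 23941446 to 23954409), which is named after its values were seen. Mdh2 was at 5771 to 12701 in Sst-high neurons and at 1313 to 5524 in Sst-low neurons, a difference of 1.39 that is under the 4-fold mark. It was above 0 in 3 of the 5 pyramidal neurons, at up to 5784.

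Neuropeptide precursors differed in both directions. Of 20 listed genes, counting Reln and Igf1 among the secreted proteins, 10 were measured, of which 6 (Sst among them) were higher and 3 lower, with a median of 3.91 over the list. Without Sst the median of the other 9 was 3.17, with 5 higher and 3 lower. The list median was 0 with class medians in place of means and 0.29 with no filter on low values. Npy, which encodes neuropeptide Y (chromosome 4, 79557856 to 79565059), was at 13216, 0 and 39192 in glia-cultured Sst-high cells 1, 2 and 5, at 185668 in the purified cell 5, and at 101264, 7270, 34072, 54723 and 276125 in OCM-treated cells 1 to 5. In the Sst-low neurons it was at 975, 0 and 112 in glia-cultured cells 3, 4 and 6, and at 0, 0, 3964 and 0 in purified cells 1 to 4. Thus 8 of the 9 Sst-high neurons had more Npy than any Sst-low neuron, and 1 had none. The difference was 9.76 over all cultures and 4.07 within cultures with glia. Npy was the gene with the highest count in glia-cultured cell 5 and OCM-treated cell 5, and it took 0.11% to 3.11% of the counts in the 8 Sst-high neurons that had it, and at most 0.0592% in the 3 Sst-low neurons that did.

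Pnoc, the precursor of nociceptin, was present in all 9 Sst-high neurons at 558 to 16083 (median 5715). In Sst-low neurons it split by culture: the glia-cultured cells 3, 4 and 6 had 1194, 8960 and 1184, whereas the purified cells 1 to 4 had 0, 2.71, 288 and 0. The difference of 5.78 over all cultures was -0.04 within cultures with glia. Tac1, the precursor of substance P, was found in 4 Sst-high neurons, at 977 and 3971 in glia-cultured cells 1 and 5, 2348 in the purified cell 5 and 432 in OCM-treated cell 4, and in none of the Sst-low neurons. Pthlh, which encodes a parathyroid-hormone-like peptide, was above 0 in 8 Sst-high neurons at 24.2 to 1507, and in 1 Sst-low neuron, glia-cultured cell 4, at 421. Igf1, the insulin-like growth factor, was found in 4 Sst-high neurons at up to 3975 and in 1 Sst-low neuron at 368; all 4 were OCM-treated, so Igf1 within cultures with glia had a difference of -2.84.

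Penk, Cck and Reln were on the other side. Penk, the enkephalin precursor (chromosome 5, 17056417 to 17061742), was found in 4 Sst-low neurons, at 21284, 627 and 25005 in purified cells 1, 2 and 4 and 6450 in glia-cultured cell 4. It was at 667 and 991 in Sst-high glia-cultured cells 1 and 5 and 0 in the other 7 Sst-high neurons. Its difference was -5.13 over all cultures but 2.23 within cultures with glia, where 2 of 3 Sst-high and 1 of 3 Sst-low neurons had it. Cck, the cholecystokinin precursor (chromosome 8, 130120525 to 130127109), reached 19464 and 28143 in the Sst-low purified cells 1 and 2. Glia-cultured cell 3 (Sst-low) had 187, glia-cultured cell 5 (Sst-high) 183, and the other 12 neurons 0. Reln, the secreted protein reelin (chromosome 4, 9347528 to 9774115), was highest in the 4 purified Sst-low neurons, at 4608, 10623, 10028 and 6811, and reached 2399 among Sst-high neurons, in glia-cultured cell 2. Within cultures with glia Reln was at 0, 2399 and 337 in Sst-high and 0, 4.92 and 656 in Sst-low neurons, and its difference turned from -2.93 to 2.57.

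**Figure D2:**
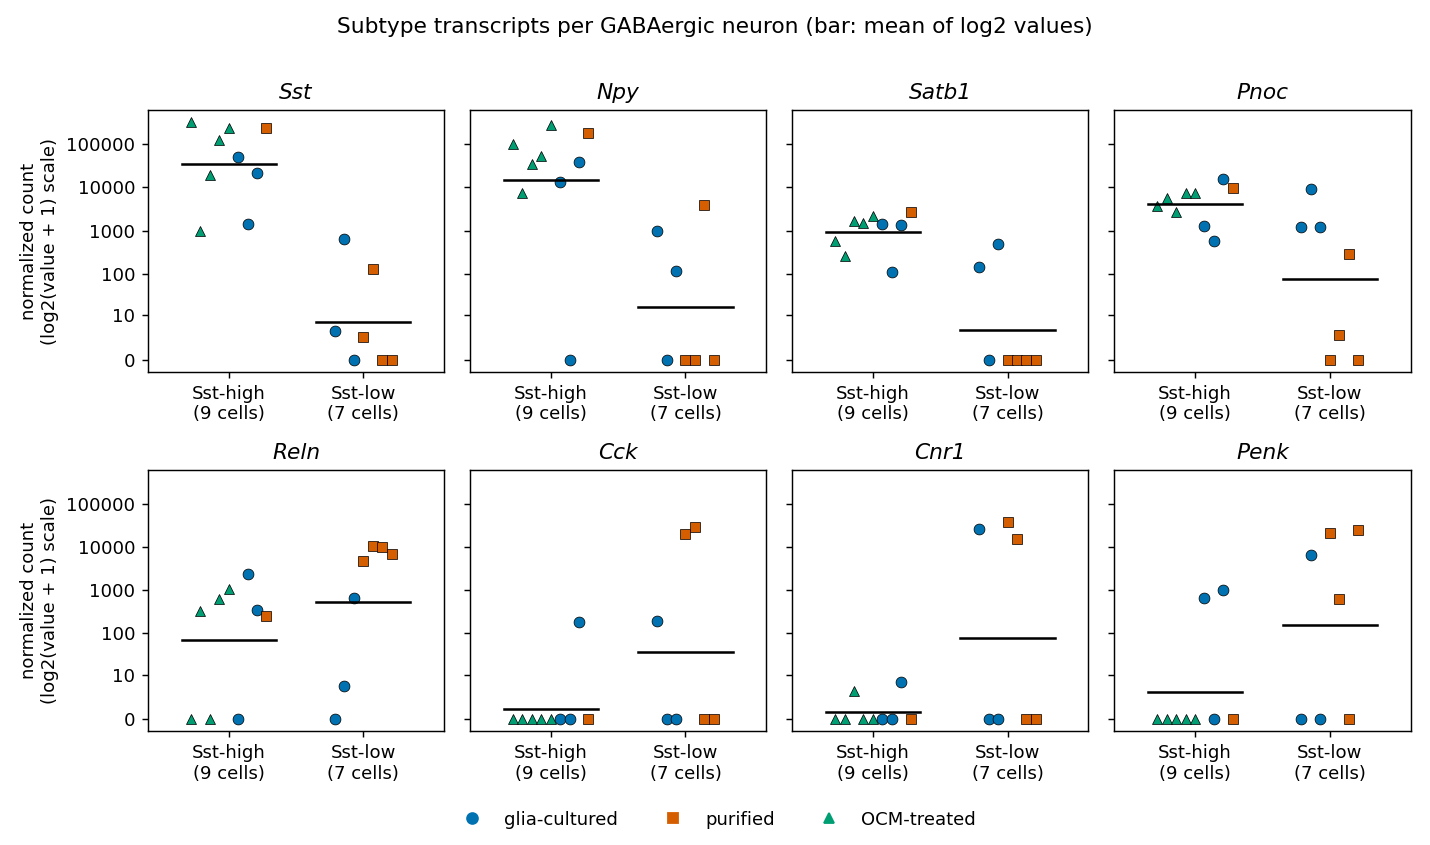
Normalized counts of 8 genes in each of the 9 Sst-high and 7 Sst-low neurons on a log2(value + 1) axis, 1 panel per gene, with symbols for the culture and a bar at the mean of the log2 values. Npy is at 7270 or more in all Sst-high neurons but 1, whereas Cck and Cnr1 are high in 2 and 3 Sst-low neurons and at most 187 and 6.40 elsewhere.

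Genes of the MGE and somatostatin lineage were measured for 19 of 30 listed, of which 9 were higher and 1 (Reln) was lower in Sst-high neurons, with a median of 1.87. Sst itself is among the 9, and without it the median was 1.32. Within cultures with glia, 12 were measured, of which 9 (Sst among them) were higher and 0 lower. The median there was 3.12 with Sst included. Of the 5288 genes measured there, 25.2% were higher and 26.6% were lower. Satb1, a chromatin organizer that acts in the maturation of somatostatin neurons (chromosome 9, 2202509 to 2274629), was present in all 9 Sst-high neurons at 107 to 2685 (median 1455). It was at 144 and 490 in glia-cultured Sst-low cells 3 and 6 and at 0 in the other 5 Sst-low neurons. Its difference was 7.54 over all cultures and 3.84 with glia. There the lowest Sst-high value, 107 in cell 2, lay below both detected Sst-low values.

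Nxph1, a secreted ligand of neurexins found in many MGE-derived neurons (chromosome 4, 34959721 to 35281016), was at 2113 to 15563 in all 9 Sst-high neurons. Among Sst-low neurons it was detected in glia-cultured cells 4 and 6 (1803 and 8048) and in the purified cells 3 and 4 (5028 and 4118), with 0 in glia-cultured cell 3 and the purified cells 1 and 2. Crhbp, a binding protein for corticotropin-releasing hormone, reached 19398 and 40967 in OCM-treated cells 4 and 5 and 3689 in glia-cultured cell 5. It was at 640 and 797 in glia-cultured cell 1 and OCM-treated cell 1, 0 in the other 4 Sst-high neurons, and at most 213 in Sst-low neurons. Calb1, the calcium buffer calbindin, was at 3917 and 4.27 in glia-cultured cells 1 and 5, and at 2583, 1191, 1226 and 23555 in OCM-treated cells 1, 3, 4 and 5. It was at 0 in all 7 Sst-low neurons. Trhde, a peptide-degrading enzyme, was above 0 in 7 Sst-high and 2 Sst-low neurons, and Erbb4, a neuregulin receptor, in 6 and 3.

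Other members of this list did not separate the classes. Maf, a transcription factor of MGE neurons, was above 0 in 6 Sst-high and 4 Sst-low neurons, with a difference of -0.15. Sox6, another MGE factor, was found in 2 Sst-high neurons at up to 197 and in 1 Sst-low neuron at 2.47. Pvalb, the calcium buffer of parvalbumin basket cells, was at 1138 in glia-cultured Sst-high cell 5, at 885 in Sst-low glia-cultured cell 4, at 19 in purified cell 2 and at 0 in the others. Nos1, found in long-range somatostatin neurons, was at 0 in all 16. Lhx6 and Cort were not analysed here.

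**Figure D3:**
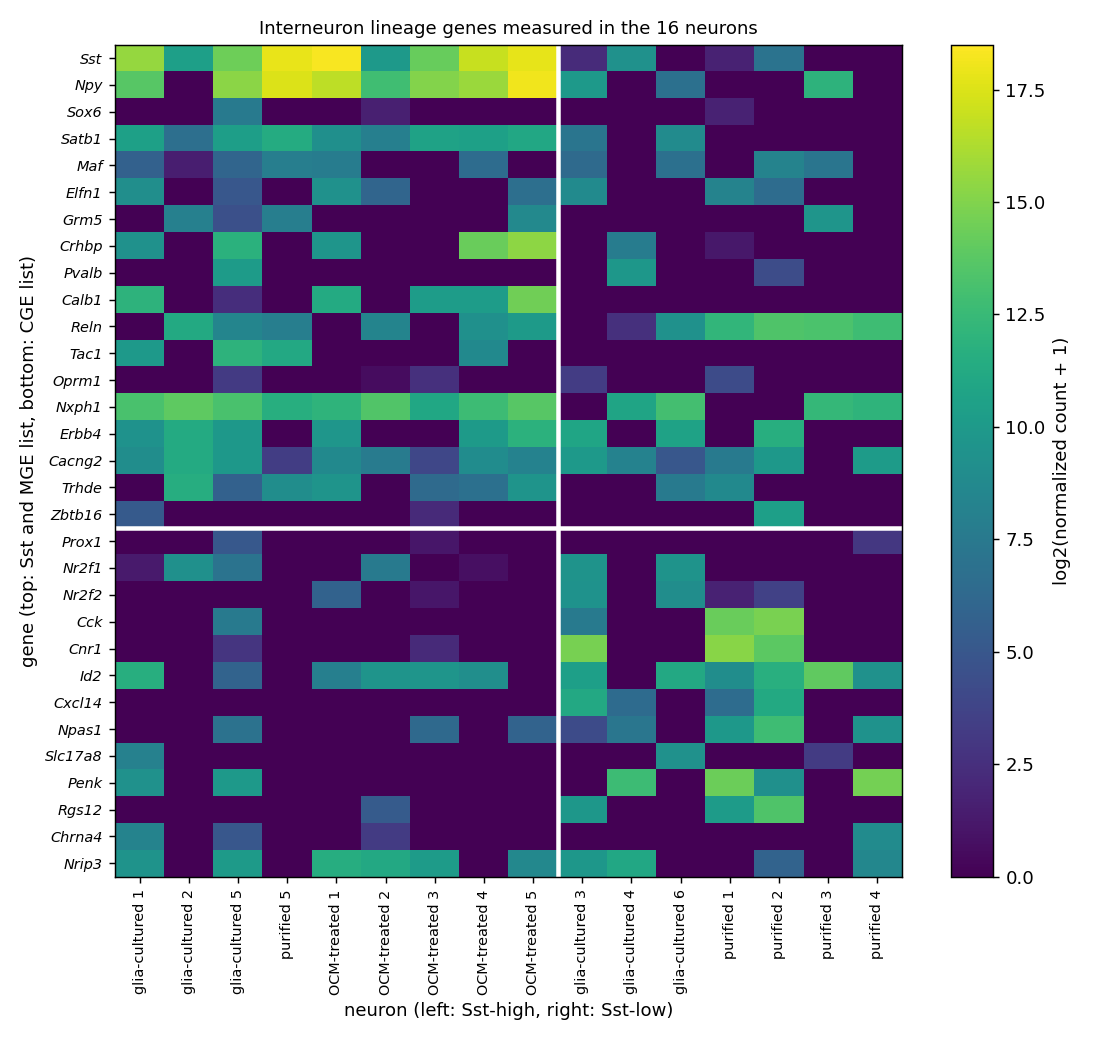
Heat map of log2(normalized count + 1) for 18 of the 19 measured genes of the Sst and MGE list (top) and the 13 of the CGE list (bottom) in the 9 Sst-high neurons (left) and 7 Sst-low neurons (right). Npy, Satb1 and Nxph1 are filled across most of the left block, and Cnr1, Rgs12 and Cxcl14 are all above 0 in the same 3 columns of the right block.

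CGE genes leaned the other way. Of 27 listed, 13 were measured; 0 were higher and 8 were lower in Sst-high neurons, with a median of -3.40. Within cultures with glia only 5 passed the filter, of which 1 (Penk) was higher and 0 lower, with a median of -0.48. Taking class medians in place of means moved the list median over all cultures to 0. Cnr1, which encodes the CB1 receptor (chromosome 5, 49311030 to 49333056), reached 26228 in glia-cultured cell 3, and 38420 and 14967 in the purified cells 1 and 2. It was at 0 in the other 4 Sst-low neurons and at most 6.40 among Sst-high neurons. The same 3 Sst-low neurons had Rgs12, a regulator of G-protein signalling, at 889, 1164 and 10690. The only other neuron with Rgs12 was the Sst-high OCM-treated cell 2, at 39.7. Cxcl14, a chemokine of CGE neurons, was at 2333, 93.9 and 2436 in these 3 neurons and at 88.6 in glia-cultured cell 4. It was at 0 in all 9 Sst-high neurons. No neuron had both Sst and Cnr1 at 900 or more, and 2 (purified cells 1 and 2) had both Cck and Cnr1 at that level. Npas1, a transcription factor of CGE neurons, was above 0 in 5 Sst-low neurons at up to 6860 and in 3 Sst-high neurons at up to 124. Nr2f2, another such factor, was at 686 and 525 in glia-cultured Sst-low cells 3 and 6 and at most 54.6 among Sst-high neurons. Id2, a factor abundant in neurogliaform cells, was above 0 in 6 neurons of each class, with its highest value, 16090, in purified cell 3. Prox1, the CGE determinant, was at most 33.1 in any neuron.

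The 7 Sst-low neurons differed among themselves in these genes. Glia-cultured cell 3 and purified cells 1 and 2 carried Cnr1. Htr3a, the serotonin receptor of CGE neurons, which failed the filter, was at 1245 in glia-cultured cell 3, 2742 in purified cell 1 and 0 in the other 14. Glia-cultured cell 4, which lay just under the Sst threshold, had Pnoc at 8960, Penk at 6450 and Nxph1 at 1803. Glia-cultured cell 6 had Nxph1 at 8048, Reln at 656 and Slc17a8, a vesicular glutamate transporter of some interneurons, at 650. Purified cell 3 had Id2 at 16090, Reln at 10028, Nxph1 at 5028 and Npy at 3964. Purified cell 4 had Penk at 25005, Reln at 6811, Nxph1 at 4118 and no Gad1. These neurons were chosen by Sst under 900, which 4 of the 7 still had above 0, and no cell type is given to them here.

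The machinery for storing and cutting peptides was present in both classes. Of 14 measured genes, 3 were higher (Scg2, Ptprn2 and Pam) and 0 lower, with a median of 1.10. With glia, 13 were measured, 2 were higher and 0 lower, against 25.2% and 26.6% of all genes there, and the median was 0.52. Scg5, a chaperone of a peptide-cutting enzyme, was at 2903 to 8403 in Sst-high and 1215 to 5845 in Sst-low neurons. Pcsk1n, an inhibitor of the same enzyme family, did not overlap within cultures with glia, at 2489, 2614 and 1791 in Sst-high and 790, 1278 and 1721 in Sst-low neurons, a separation that 5.26% of genes showed in this direction. Scg2, a granin with a match to the CRE, was at 5470 to 28904 in Sst-high neurons. In Sst-low neurons it ran from 0 and 5.42 in purified cells 1 and 2 to 82886 and 123730 in glia-cultured cells 3 and 4, the 2 highest values of all. Vgf, a granin-like precursor whose site is shown above, was at 756 to 8545 in Sst-high and 4.94 to 8366 in Sst-low neurons. Peptide receptors were scarce: 3 of 14 passed the filter, and 0 were higher or lower. Sstr4, a somatostatin receptor, was found in 2 Sst-high neurons at up to 336 and in glia-cultured Sst-low cell 3 at 1219.

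Genes of the CREB pathway were measured for 14 of 21, with 4 higher, 1 lower and a median of 1.08 over all cultures. With glia the median was 0.15, with 2 of 10 higher and 1 lower, against 25.2% and 26.6% of all genes there. Creb1 and Crem, the CREB factor and its relative, were above 0 in 3 Sst-high neurons each and in 0 Sst-low neurons. Both thus passed the filter through the Sst-high class alone, and their direction was fixed by it. Camk4, a kinase that activates CREB, was above 0 in 6 Sst-high neurons at 167 to 1644 and in glia-cultured Sst-low cells 3 and 6 at 352 and 724. Pde4d, which breaks down cAMP, had a difference of -4.04 over all cultures, being above 0 in 3 of 9 against 6 of 7 neurons. Neither gene passed the filter with glia in the case of Creb1 and Crem. Activity-regulated genes were measured for 11 of 19, with 4 higher, 0 lower and a median of 1.48. With glia only 2 (Fos and Dusp1) were measured, of which 0 were higher and 1 was lower, with a median of -1.93. Egr4, which did not pass the filter with glia, was above 0 in 6 Sst-high neurons at 76.8 to 1358 and in 0 Sst-low neurons. Dusp1, a phosphatase gene with a match to the CRE, was above 0 in 7 Sst-high neurons at 398 to 3011. Among Sst-low neurons Dusp1 was found in glia-cultured cells 3 and 4, at 586 and 1508. Its difference was 5.02 over all cultures and 0.32 with glia. Fos went the other way with glia: 2135, 0 and 2118 in Sst-high lay below 2163, 2873 and 4286 in Sst-low neurons, a separation that 4.43% of genes showed.

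Potassium and HCN channel genes were measured for 25 of 29. Over all cultures 10 were higher and 3 lower, with a median of 0.98, and with glia 8 of 20 were higher and 6 lower, against 25.2% and 26.6% of all genes there. Kcna1, a low-threshold potassium channel, was at 1419, 1408 and 2783 in glia-cultured Sst-high cells, at 0 in the purified cell 5, and at 600, 1034, 0, 294 and 1746 in OCM-treated cells. Among Sst-low neurons Kcna1 was found in glia-cultured cell 4 alone, at 1115. Kcnc2, a channel of fast-spiking and somatostatin neurons, was above 0 in all 9 Sst-high neurons at 5.60 to 3645 and in 2 Sst-low neurons, at 272 and 674. Both genes had all Sst-high above all Sst-low values with glia, a separation that 5.26% of genes showed in this direction. Kcnip1, a subunit of A-type channels, was above 0 in 8 and 2 neurons, whereas its relative Kcnip4 was at 0 in all 9 Sst-high neurons and at 867 to 1582 in 4 Sst-low neurons. Kcnd3, the pore such subunits bind to, was above 0 in 5 and 6 neurons with a difference of -3.15, whereas its relative Kcnd2 was above 0 in 7 and 2 neurons, with a difference of 3.48.

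Sodium and calcium channel genes were measured for 17 of 19, with 8 higher, 0 lower and a median of 1.86, and with glia 8 of 13 were higher and 2 lower, against the same shares. Scn1a, a sodium channel pore of many interneurons, was above 0 in 8 Sst-high neurons at 1.87 to 2388. In Sst-low neurons it was at 1385, 1194 and 1983 with glia, at 10.3 in the purified cell 4 and at 0 in the other 3 purified neurons. Its difference was 2.31 over all cultures and 0.20 with glia. Cacna1a, the P/Q calcium channel pore, was above 0 in 8 Sst-high neurons at 7.88 to 2776 and in 4 Sst-low neurons at 2.71 to 1530, and Cacna2d2, an auxiliary calcium channel subunit, in 7 and 3 neurons. Scn3a, a sodium channel most abundant before birth, was above 0 in 9 and 6 neurons and its difference was -1.64.

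Receptor genes for GABA and glutamate were measured for 20 of 27, with 9 higher, 3 lower and a median of 1.17; with glia 5 of 17 were higher and 4 lower, near the shares of all genes there (25.2% and 26.6%), with a median of 0.14. The beta subunits of the GABA-A receptor were placed in opposite ways. Gabrb2 was at 166 to 1386 (median 510) in all 9 Sst-high neurons and at 689, 672 and 16.4 in 3 of 7 Sst-low neurons. Gabrb1 was at 78.4 in 1 Sst-high neuron, glia-cultured cell 5, and at 5.48 to 1840 in 5 Sst-low neurons. Among kainate receptors, Grik2 was above 0 in 8 Sst-high neurons and in 1 Sst-low neuron (2398, purified cell 4), and Grik1 in 3 and 5 neurons. Their differences were 5.18 and -4.80. Gria4, an AMPA receptor subunit of interneurons, was at 1379 to 6684 in 8 Sst-high neurons and 0 in the purified cell 5. In Sst-low neurons it was at 3894, 2260 and 0 with glia and at 2.47, 0, 1489 and 0 in purified cultures.

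Synapse and adhesion genes were measured for 24 of 29, with 7 higher, 3 lower and a median of 0.75. Over all genes 19.5% were higher and 10.8% lower. With glia 6 of 24 were higher and 2 lower, against 25.2% and 26.6% of all genes there, and the median was 0.62. Cdh13, a cadherin that lacks an intracellular tail (chromosome 19, 50848793 to 51971612), was at 2125 to 6261 in all 9 Sst-high neurons. Among Sst-low neurons it was at 9.95, 745 and 3450 in glia-cultured cells 3, 4 and 6 and at 0 in the 4 purified cells. Elfn1, a postsynaptic organizer described in oriens-lacunosum moleculare cells, was above 0 in 5 Sst-high and 3 Sst-low neurons and did not separate them (0.65). Cplx2, a complexin, was at 0 to 1394 in Sst-high and 175 to 3933 in Sst-low neurons, a difference of -3.04, whereas the difference of Cplx1 was 0.84. Slc30a3, the zinc transporter of synaptic vesicles, was at 83.0 to 7809 (median 4958) in all 9 Sst-high neurons. In glia-cultured Sst-low neurons it was at 1654, 1689 and 1140, and in purified Sst-low neurons at 0. The glia-cultured values lay below the 6563, 5927 and 3473 of the Sst-high neurons grown the same way. With glia, 5.26% of genes separated the classes in this direction. Slc30a3 is on the glutamatergic list, of whose 5 measured genes it was the only one past the 4-fold mark.

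Endocannabinoid genes differed in both directions. Of 9 measured genes, 1 was higher (Plcb1) and 2 were lower (Cnr1 and Abhd6). In all, 6 differences were positive and 3 negative, with a median of 0.86. With glia 3 of 7 were higher and 2 lower, and the median was 0.08. Of 8 measured reelin pathway genes, 3 were higher (Vldlr, Crk and Rapgef1) and 1 was lower (Reln). Their median was nevertheless -0.74, since 5 of the 8 differences were negative. With glia 3 of 7 were higher and 0 lower, and the median was -0.52. Vldlr, a reelin receptor, was above 0 in 6 Sst-high neurons at 375 to 4271 and in 2 Sst-low neurons, at 2103 and 4422. Of 10 measured GABAergic identity genes, Gad1 (2.75) and Sp9 (2.37) were higher and 0 were lower. With glia 0 of 8 passed the mark in either direction. Of 15 pan-neuronal genes, 2 were higher, Nefm (2.54) and Thy1 (2.11), and 1 was lower, Gap43 (-2.78). Nefm, a neurofilament subunit, was at 3921 to 25663 in Sst-high and 480 to 6266 in Sst-low neurons. Gap43, a growth cone protein, was at 0 to 12978 in Sst-high and 1714 to 10358 in Sst-low neurons. Snap25, a core synaptic gene, was at 9119 to 35332 and 6340 to 44072.

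**Figure D4:**
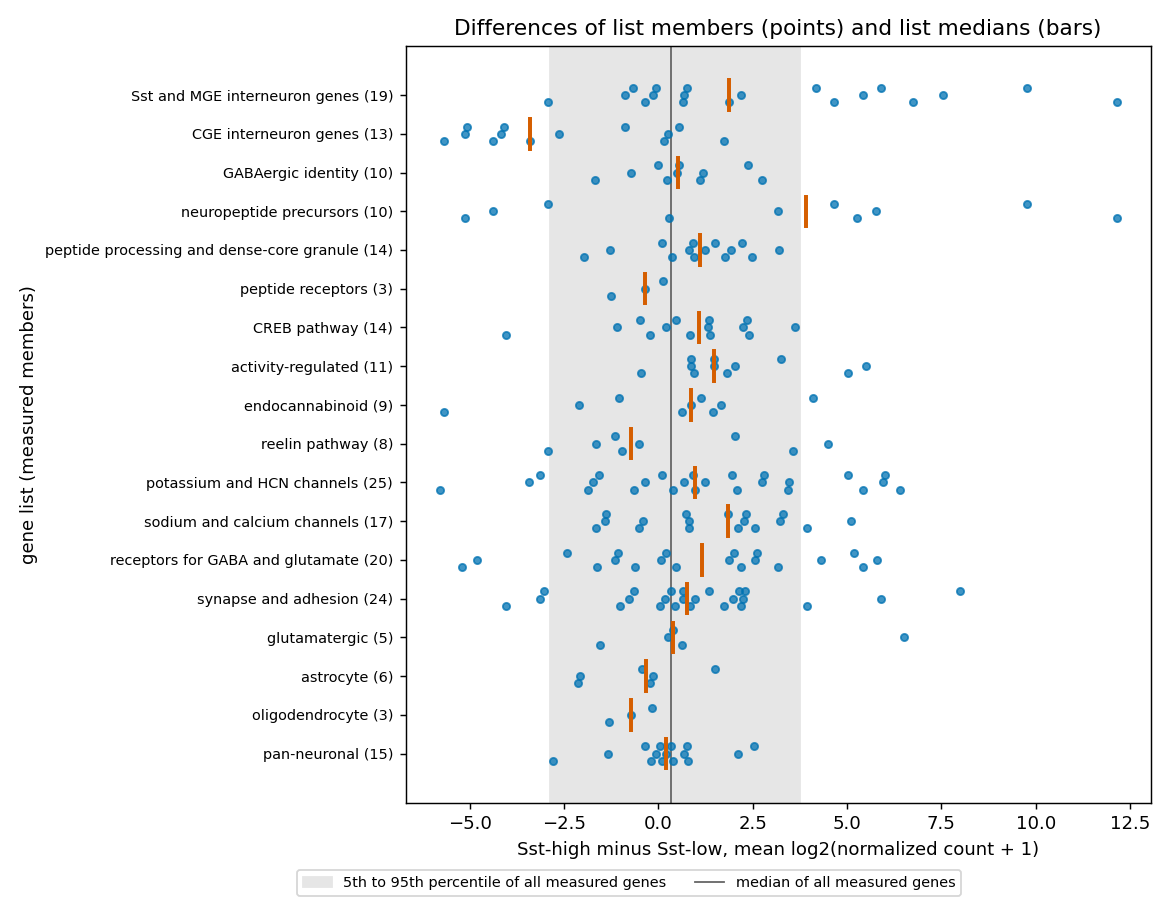
Difference of the class means of log2(normalized count + 1), Sst-high minus Sst-low (x axis), for each measured member (points) of each gene list (y axis, with the number measured), with list medians as bars and the 5th to 95th percentile of all 7305 genes in grey. Neuropeptide precursors, with Sst included, have the highest median, 3.91, and CGE genes the lowest, -3.40.

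Transcripts of glial and vascular cells overlapped between the classes. The summed level of 9 astrocyte genes was 0 to 1696 (median 933) in Sst-high and 0 to 3346 (median 1162) in Sst-low neurons. Slc1a2 was at 0 in all 16 neurons and Gfap in all 9 Sst-high neurons. Of 6 measured astrocyte genes, 0 were higher and 2 lower over all cultures. With glia 1 of 4 was higher and 2 were lower, with a median of -2.07, and the astrocyte sums were 1079 to 1696 in Sst-high and 169 to 3346 in Sst-low neurons. Their part in the results with glia was not tested. The sum of 10 oligodendrocyte genes was 0 to 998 in Sst-high and 0 to 1352 in Sst-low neurons, with Mog, Mag, Mobp, Sox10 and Pdgfra at 0 throughout. Of 3 measured oligodendrocyte genes, 0 passed the mark. The sum of 10 microglial genes was at most 0.51 and 106, and that of 6 vascular and fibroblast genes at most 15.8 and 109. The lists of microglial, vascular and lateral ganglionic eminence genes had 0 measured members. The sum of 12 glutamatergic genes, Slc30a3 among them, was 83.0 to 7809 (median 4962) in Sst-high and 0 to 2011 (median 6.88) in Sst-low neurons. With glia these sums did not overlap, at 3594 to 6563 and 1140 to 2011. Slc17a6, Neurod1 and Bhlhe22 were at 0 in all Sst-low neurons and above 0 in at least 1 Sst-high neuron. For Neurod2 it was the other way round. Neurod6 was at most 80.0 and Camk2a at most 14.2 among Sst-high neurons, against 25.2 and 320 among Sst-low neurons.

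The rule for naming genes ranked them by the difference that remained when any 1 neuron was left out, and took 12 per direction. Besides Sst and Npy, the higher genes were Lztr1, Arap1 // Pde2a (a row shared by overlapping genes), Rgs7, Sacm1l, Ptges2, Ephx4, Ppa1, Igfbp4, Armcx1 and Cdh13. Igfbp4, a binding protein of insulin-like growth factors, was at 83.9 to 9532 in all 9 Sst-high neurons, at 445 and 938 in glia-cultured Sst-low cells 4 and 6, and at 0 in the other 5. Rgs7, a regulator of G-protein signalling, was at 912 to 3009 in 8 Sst-high neurons and 0 in OCM-treated cell 5, and in Sst-low neurons was found in glia-cultured cell 4 alone, at 1142. Ppa1, a pyrophosphatase, was at 289 to 9316 in all 9 Sst-high neurons and at 1509 and 1682 in glia-cultured Sst-low cells 3 and 4. Lztr1, an adaptor of a ubiquitin ligase, was at 549 to 4235 in 8 Sst-high neurons and at 36.1 in 1 Sst-low neuron. The row of Arap1 // Pde2a was at 237 to 2350 in 8 Sst-high neurons and 0 in all Sst-low neurons. It was above 0 in 4 of the 5 pyramidal neurons as well, and Ppa1, Rgs7 and Sacm1l in 3 of them.

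The lower genes were Phactr3, Ttc27, Cul3, Tor1aip2, Zc3h7b, Rbsn, Sirt3, Limk2, Dmtf1, Tox4, Adcy2 and Zc3hc1. Phactr3, a protein phosphatase and actin regulator (chromosome 3, 173798542 to 173871388), was at 87.7, 470 and 378 in glia-cultured Sst-low cells and 862, 190, 1110 and 251 in purified ones. Of the 9 Sst-high neurons, it was found in OCM-treated cell 2 alone, at 259, the neuron with the lowest Sst of its class. Ttc27 (chromosome 6, 21735833 to 21879992) was at 276, 478 and 5235 with glia and 1281, 0, 3679 and 0 in purified Sst-low neurons, and at 0 in all 9 Sst-high neurons. Cul3, a scaffold of ubiquitin ligases, was at 303 to 3268 in all 7 Sst-low neurons and at 43.6 to 609 in 4 Sst-high neurons. Adcy2, an adenylyl cyclase that makes cAMP, was at 1293 to 3493 in 6 Sst-low neurons and above 0 in 4 Sst-high neurons, of which glia-cultured cells 1 and 2 had 1847 and 2751. Sirt3, a mitochondrial deacetylase, was at 412 to 4427 in all 7 Sst-low neurons and at 626 to 1252 in 4 Sst-high neurons. Several Sst-high neurons thus had counts of these genes in the Sst-low range.

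**Figure D5:**
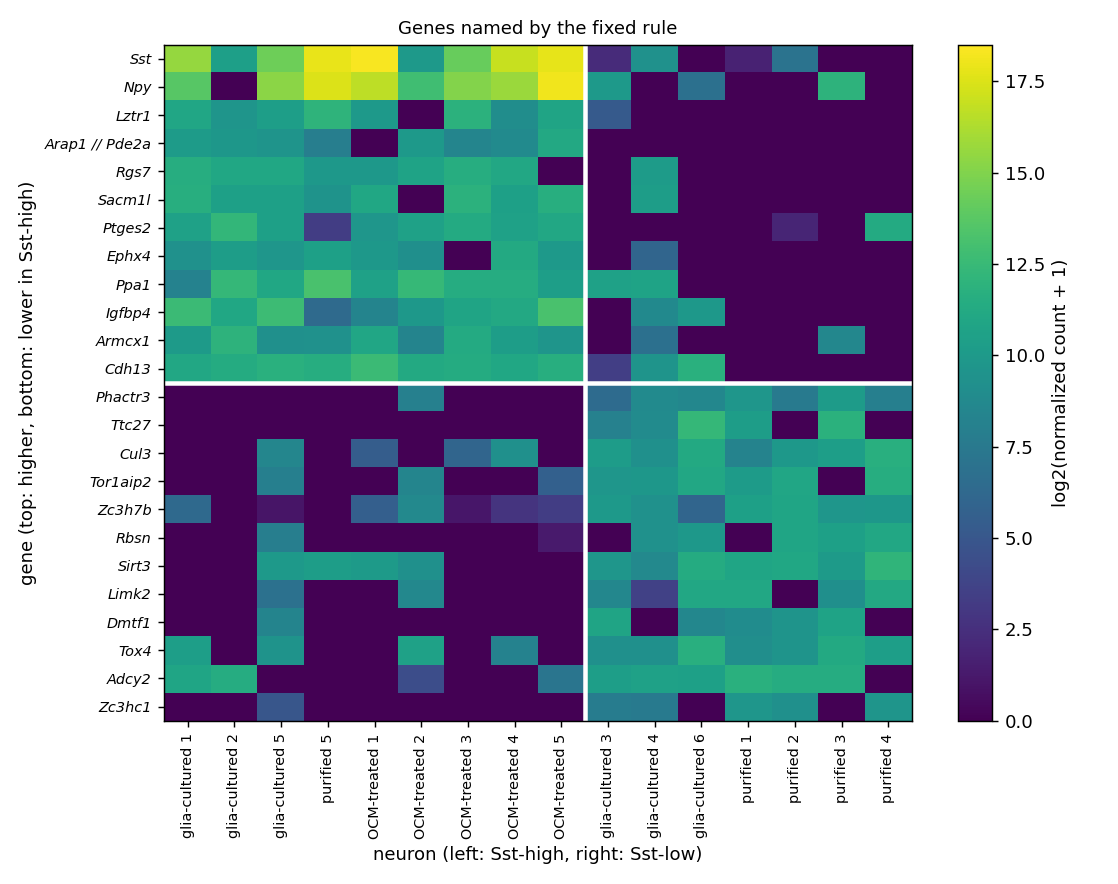
Heat map of log2(normalized count + 1) for the 24 genes named by the rule, 12 higher (top) and 12 lower (bottom), in the 9 Sst-high neurons (left) and 7 Sst-low neurons (right). The higher genes are at or near 0 in the 4 purified Sst-low neurons with few exceptions, and glia-cultured cell 4 holds several of them.

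The comparison was repeated within the cultures that held both classes. With glia, 3 against 3 neurons, 1333 of 5288 genes (25.2%) were higher and 1407 (26.6%) were lower, and the median was 0.02. Non-overlap was found for 278 genes (5.26%) with Sst-high above and for 234 (4.43%) with Sst-high below. Of the 1422 genes higher over all cultures, 1033 were measured with glia, and 627 of them (11.9% of the 5288) were also higher there, 45 were lower and 161 in all had the opposite sign. Of the 786 lower genes, 603 were measured with glia, 413 (7.81%) were also lower, 22 were higher and 68 in all had the opposite sign. These neurons are among those of the pooled comparison, so the counts are not independent of it. Among genes on the lists, Nxph1, Kcna1, Kcnc2, Crk, Gria1, Pcsk1n and Slc30a3 had all 3 Sst-high above all 3 Sst-low neurons. Cnrip1, Cplx2, Fos, Gria2, Grin2b and Slc32a1 had them below. These genes are to be read beside the 5.26% and 4.43% of all genes that separated in the same ways. Cnrip1, which binds the CB1 receptor, was at 2370, 1300 and 1625 in Sst-high and 4974, 3060 and 4405 in Sst-low neurons. Depth differed here as well, at 14067438 to 25160911 reads in Sst-high and 5587208 to 13700720 in Sst-low neurons.

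In purified cultures the single Sst-high neuron, cell 5, stood against 4 Sst-low neurons. Over 2189 genes 721 (32.9%) were higher and 728 (33.3%) lower, and the median was 0.18. This neuron was the only one titled P in its culture and had the most reads there (7821375 against 2442814 to 6282231), so these differences and its Sst level cannot be told apart from its library. Of the 1422 genes higher over all cultures, 555 were also higher in the purified cultures and 262 were lower there. Of the 786 lower genes, 642 were also lower and 42 were higher. These counts were not limited to the 2189 genes measured there, so no share of those genes stands beside them. The purified neurons are also among those of the pooled comparison, so the counts are not independent of it. Purified cell 5 had Npy at 185668, Satb1 at 2685, Tac1 at 2348 and Nxph1 at 3113, and no Calb1, Crhbp or Penk. Its Gad2, at 898, was the lowest of the 16 neurons, and 30.1% of its counts were in rows without a gene symbol, against 11.7% to 24.8% in the other neurons. In OCM-treated cultures there was no Sst-low neuron and no comparison.

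Within the Sst-high class the peptide partners of Sst varied. At 900 or more counts, 8 of the 9 neurons had Npy, 5 had Calb1 (glia-cultured cell 1 and OCM-treated cells 1, 3, 4 and 5), 3 had Crhbp (glia-cultured cell 5 and OCM-treated cells 4 and 5), 3 had Tac1 (glia-cultured cells 1 and 5 and purified cell 5), 2 had Reln (glia-cultured cell 2 and OCM-treated cell 5) and 1 had Penk (glia-cultured cell 5). The neurons with the least Sst, OCM-treated cell 2 and glia-cultured cell 2, had none of Calb1, Crhbp, Tac1 and Penk, the lowest Npy values (7270 and 0) and the lowest Satb1 values (257 and 107). Their Nxph1 counts, 11237 and 15563, were among the 3 highest. Depth ran alongside this order. Over the 9 neurons the rank correlation (Spearman) of Npy was 0.87 with Sst and -0.82 with reads. That of Satb1 was 0.53 with Sst and -0.75 with reads. The part of depth was not tested. OCM-treated cell 5 combined high Sst (234564), Npy (276125), Crhbp (40967) and Calb1 (23555) with Reln at 1078.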

How the data were processed

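Each neuron's RNA was amplified by SMART-Seq v4 after recording, and Nextera XT libraries were read from both ends, per the labels' protocols. The submitters' processing notes list the build rn6 with STAR 2.4.0, DESeq2, SAMtools, Picard and FastQC. The counting program, its annotation and strand setting were not given in the sources used here. As deposited, the signal per gene is a count that the authors had divided by a size factor.

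The table has 34976 rows, 18376 of them without a symbol. For each of 16245 symbols the row with the highest mean was kept. In 100% of values the signal was a whole multiple of 1 step per neuron (within 0.05), which gave back reads and depth. No count test was run on these reads, since neurons are not replicates of a culture and the classes were chosen on a readout. No molecular identifiers are mentioned, so floors of 3 reads cover counting error only (0.909 to 8.22 normalized counts per neuron). The highest correlation of log2 values between 2 neurons was 0.74.

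Differences used a pseudocount of 1. Named genes needed a mean of at least 50, values above 0 in at least 4 neurons of the higher class and no opposite sign within a culture; list members are named besides. Some genes are on more than 1 list. Members and the 21 gene lists were chosen with earlier results of these data known. The calculation of differences was checked on simulated counts with known changes. Those counts were set at levels where few would be 0. The check therefore does not cover genes that many neurons lack. Alternatives were other pseudocounts, scalings, filters, depths, Sst thresholds and cultures, the median over neurons, cells titled S and leaving out each neuron. Symbols were matched to RefSeq (GRCr8) for promoter windows only. Work was done in Python 3.11.15 with pandas 2.3.3, numpy 2.4.6, matplotlib 3.10.9 and scipy 1.17.1. Values of some list members are not reported here.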

Additional observations from a re-analysis of the deposited data

Results flagged for a closer look

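In 24 of 94 sets of 1 class and 1 measure, 1 neuron lay far from the rest of its class by Dixon's criterion. That criterion is set to flag about 1 of 20 sets of normally distributed values. Values are log2(normalized count + 1), and list scores are means of these over a list. Many of the sets hold several neurons at 0, and the named genes were picked by their class difference. The number of flagged sets can therefore not be set against that rate.

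Among list scores, that of GABAergic identity was 5.19 in the purified Sst-high cell 5, against 7.83 to 9.14 in the other Sst-high neurons. The oligodendrocyte score was 7.87 in glia-cultured Sst-high cell 5 (at most 2.98 in the others) and 8.38 in glia-cultured Sst-low cell 3 (at most 3.25).

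Among Sst-high neurons, Npy was at 0 in glia-cultured cell 2, Cck at 7.52 in glia-cultured cell 5, Lztr1 and Sacm1l at 0 in OCM-treated cell 2, Arap1 // Pde2a at 0 in OCM-treated cell 1, Rgs7 at 0 in OCM-treated cell 5 and Ephx4 at 0 in OCM-treated cell 3. Ptges2 was at 3.37 in the purified cell 5, Cdh13 at 12.61 in OCM-treated cell 1 and Phactr3 at 8.02 in OCM-treated cell 2. Glia-cultured cell 5, the neuron with the most detected genes, had Rbsn at 7.90, Dmtf1 at 8.35 and Zc3hc1 at 4.95 where the other Sst-high neurons had little or none.

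Among Sst-low neurons, Lztr1 was at 5.21 in glia-cultured cell 3. Glia-cultured cell 4, the neuron just under the Sst threshold, had Rgs7 at 10.16, Sacm1l at 10.32 and Ephx4 at 6.02 where the other Sst-low neurons had 0. Ptges2 was at 11.31 in purified cell 4, which had Adcy2 at 0. Tor1aip2 was at 0 in purified cell 3, and Zc3h7b at 6.05 in glia-cultured cell 6.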

How the results depend on the processing

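No paired analysis was possible because the titles give no replicate number that groups share. Over all cultures, where 1422 genes were higher and 786 lower, a pseudocount of 10 gave 677 higher and 366 lower, a pseudocount of 0.1 gave 1186 lower, and differences taken within cultures and weighted gave 1644 lower. The 2 genes with all Sst-high above all Sst-low neurons became 4 with an Sst threshold of 100 or of 10000, 23 without OCM-treated neurons, 36 among cells titled S and 13 in a setting chosen after seeing the data, which left out OCM-treated cell 2 and glia-cultured cells 2 and 4. Leaving out 1 neuron gave 2 to 6 (6 without glia-cultured cell 4). The 0 genes with the reverse became 1 at a threshold of 100, 10 without OCM-treated neurons, 22 among cells titled S and 4 in the added setting, and 0 to 3 with 1 neuron left out (3 without OCM-treated cell 2). With glia, a pseudocount of 10 gave 867 higher genes. Leaving out 1 neuron there gave 762 (without cell 5) to 1459 (without cell 2) higher and 893 (without cell 2) to 1544 (without cell 6) lower genes, and 434 to 509 above and 350 to 566 below without overlap. With fewer neurons non-overlap is easier to reach.

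The median of all genes, 0.33, was 0.51 with upper-quartile scaling, 0 with class medians, -0.35 with weighted differences within cultures and 0.98 among cells titled S. Of the named and marker genes, 16 of 1440 values over all cultures moved by more than the spread, and Gad2, at -0.01, was the only gene whose sign turned with scaling (0.02 and 0.25). Within cultures with glia, 3 of 36 genes with a difference of at least 2 in size turned sign when 1 neuron was left out: Cnr1 ran from -6.38 to 0.96 (without cell 3), Ppa1 from -0.13 (without cell 6) to 5.23 and Adcy2 from -5.05 to 0.67 (without cell 5). Of 12 genes with smaller differences there, 6 turned sign in some alternative (Cck, Chgb, Gad2, Id2, Nr2f1 and Pnoc), as did Gad2 and Nr2f1 of 6 over all cultures. The median of the Sst and MGE list was 0.72 to 3.34 over all alternatives and that of the CGE list -4.08 to 0.00. That of neuropeptide precursors was 0 to 7.90.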

Other observations

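The 5 pyramidal neurons, which were in neither class, also held some of these transcripts. Slc17a7 was at 7887 to 18423 in 4 of them, and the library labelled pyramidal cell 3 had 0, with Mobp at 2725 and Gfap at 1445. Sst was at 118 in pyramidal cell 2 and 0 in the other 4. Npy was at 3712 in pyramidal cell 4 and 0 in the other 4. Cnr1 was at 12648, 708 and 1513 in pyramidal cells 1, 2 and 4, and Cck at 1474 in pyramidal cell 4. Satb1 was at 1433 in pyramidal cell 2. Egr4, which was absent from the Sst-low neurons, was at 1280, 2524, 1910 and 2432 in pyramidal cells 1, 2, 4 and 5. Nxph1, Pnoc, Tac1, Crhbp and Igfbp4 were at 0 in all 5.

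A few genes of the interneuron lists were found in fewer than 3 of the 16 neurons and so entered no count. Adarb2, a gene of the CGE list, was at 663 in glia-cultured Sst-low cell 3 and 1655 in purified Sst-low cell 4. Lamp5, a membrane protein of neurogliaform neurons, was at 626 in glia-cultured Sst-high cell 5 and 763 in glia-cultured Sst-low cell 3. Meis2, a transcription factor of the lateral ganglionic eminence, was at 432 and 841 in the Sst-high glia-cultured cell 5 and OCM-treated cell 5.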
